A study of Mus musculus with 18 samples.

Results

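The 36 genes described here code for integrins and for the proteins that tie integrins to actin and to signalling at focal adhesions. They were taken by symbol from the deposited table of 50600 genes, and all 36 symbols were found. Of these, 34 had enough counts to be tested, while Parva and Bcar1 lay at or below 0.24 CPM (TMM-scaled counts relative to library size) in all 18 libraries. The members were 7 alpha and 5 beta integrin subunits, 4 talin, kindlin and vinculin genes, 4 genes of the ILK, PINCH and parvin complex, 4 LIM and docking adaptors, 6 actin crosslinkers and tensins, and 6 genes of the GIT-PIX and CRK-DOCK modules.

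RNA-seq was done on bone marrow-derived macrophages (BMDMs) of wild-type (WT) and IRF5 knockout (IRF5-/-) mice, grown for 8 days with GM-CSF. Cells of each genotype were left unstimulated, or were pretreated for 1 h with DMSO or with 3.5 µM defactinib, an inhibitor of the kinases FAK (Ptk2) and PYK2 (Ptk2b), and then given 100 ng/ml LPS for 2 h. This made 6 groups of 3 libraries. For unstimulated libraries the labels give DMSO while the count table marks them as untreated, so the vehicle is not certain there, and no unstimulated cells received defactinib. The knockout is of the whole animal, the study's methods give male C57BL/6J mice aged 8 to 11 weeks as its purchased animals without tying them to these libraries, and GM-CSF cultures can hold dendritic cell-like cells besides macrophages.

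Integrins are paired alpha and beta receptors that bind matrix proteins and counter-receptors on other cells. Talin and kindlin bind the beta tail and switch the receptor on, vinculin, alpha-actinin, filamin and tensin couple it to actin, and paxillin, the CAS family adaptors and CRK pass its signal to FAK, PYK2 and Src kinases and on to the RAC activator DOCK1. In myeloid cells the beta2 integrins, alphaL (Itgal), alphaM (Itgam) and alphaX (Itgax) with Itgb2, carry adhesion to ICAM1 and complement, while alpha4, alpha5 and alphaV with Itgb1, Itgb3, Itgb5 or Itgb7 bind VCAM1, fibronectin and vitronectin.

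Between 39282181 and 61949143 read pairs were counted per library, and the lowest level of a called member was 2.57 CPM, for Tln2. Irf5 itself was at 587 to 650 CPM in unstimulated WT and 335 to 397 CPM in unstimulated IRF5-/- libraries, a log2 difference of 0.75 (adjusted p = 0.00492), so counts over the whole gene were lower but not lost. After LPS with DMSO it was at 434 to 475 against 345 to 435 CPM (0.16, adjusted p = 0.428) and with defactinib at 213 to 379 against 353 to 392 CPM (-0.42, adjusted p = 0.0545), and the genotypes overlapped in both. The 8 macrophage markers summed to between 9532 and 18517 CPM in every library, while T cell, B cell and fibroblast markers each summed to at most 6.19 CPM. Dendritic cell markers summed to between 69.0 and 494 CPM. Irf5 also fell with defactinib in WT (-0.71, adjusted p = 0.00182). Nothing in the labels says that the libraries of a group came from separate animals, so p-values measure the spread between these libraries.

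The 3 IRF5-/- LPS DMSO libraries were not alike. Replicates 1 and 2 differed by a chi-square of 2.33 per gene, against 441 and 425 between each of them and replicate 3. Replicates 1 and 2 had 2.57% and 2.56% of counts on Gm26917, a long non-coding RNA gene, and replicate 3 had 0.0125%. The same gene took 1.06% to 1.70% in IRF5-/- LPS defactinib, 2.18% to 4.15% in WT LPS defactinib and at most 0.0154% in the WT LPS DMSO and unstimulated libraries. Over the 34 members, replicates 1 and 2 were nearest to the IRF5-/- LPS defactinib mean (mean absolute log2 differences of 0.26 and 0.24), and replicate 3 was nearest to unstimulated IRF5-/- (0.28). Crk, an SH2-SH3 adaptor, stood at 24.6 and 22.8 CPM in replicates 1 and 2 and at 118.5 CPM in replicate 3, and Itga5 at 36.2, 39.3 and 201.9 CPM. Whether all 3 libraries carry the right label could not be settled from the files, so the values below for LPS with DMSO in IRF5-/- cells, and every comparison that uses them, are for the libraries as labelled. The spread is estimated over all 6 groups, so these libraries also enter the SE and p-values of the other comparisons. The main results are given without replicate 3 and with replicate 3 alone. In WT LPS defactinib, replicate 3 also lay further from the others (chi-square of 140 and 183 per gene) than they did from each other (84.1). So did unstimulated WT replicate 3 (55.2 and 52.4 against 3.82), which had 1.44% of counts on Gm42418 against 0.184% and 0.222%, and unstimulated IRF5-/- replicate 2 (36.8 and 33.1 against 7.09).

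**Figure D1:**
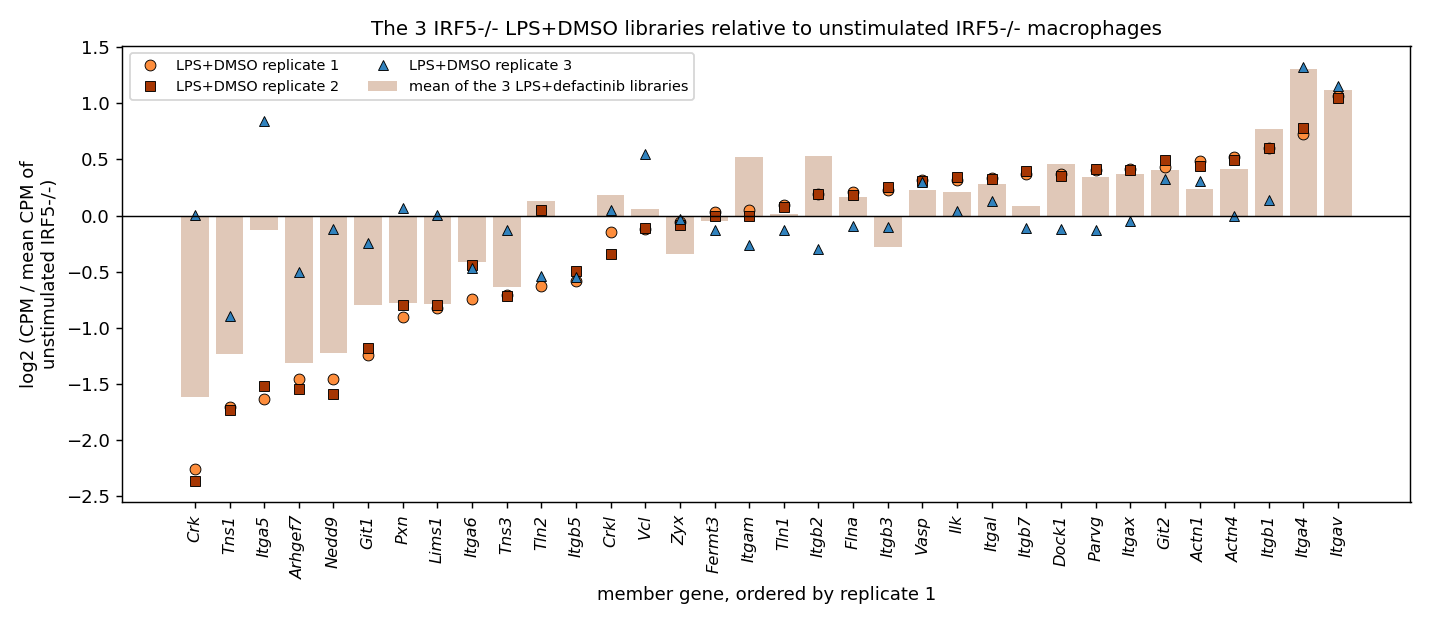
Log2 ratio of each IRF5-/- LPS DMSO library to the mean of the 3 unstimulated IRF5-/- libraries (vertical axis) for the 34 members tested (horizontal axis, ordered by replicate 1); bars are the same ratio for the mean of IRF5-/- LPS defactinib. Replicates 1 and 2 coincide for most members, and replicate 3 departs from them at Crk (0.00 against -2.26 and -2.37) and Itga5 (0.84 against -1.64 and -1.52).

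Levels were first set side by side per kb of exon, since longer genes collect more counts. In unstimulated WT BMDMs Itgb2, the shared beta chain of the leukocyte integrins, led the members at 724 ± 27.7 CPM per kb (SD, n = 3). Itgax followed at 485 ± 18, the LIM protein Zyx (zyxin) at 403 ± 56.0 and filamin A (Flna) at 228 ± 24.1 CPM per kb. Itgb1 was at 132 ± 4.08 CPM per kb, and the spreads of Actn1, Vasp and Itgb1 overlapped. Kindlin-3 (Fermt3, 107 ± 3.88) and talin-1 (Tln1, 68.7 ± 7.71), the activators of leukocyte integrins, lay in the upper part of the range. Of the alpha chains called for LPS or for defactinib in WT, as given below, Itga5 was at 41.3 ± 3.35 CPM per kb, close to Itgal, while Itgav was at 6.34 ± 0.20 and Itga4 at 5.09 ± 0.44. Itgb7, Itga6, Itgb3 and Tln2 were the lowest of those tested, between 0.54 and 3.02 CPM per kb.

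**Figure D2:**
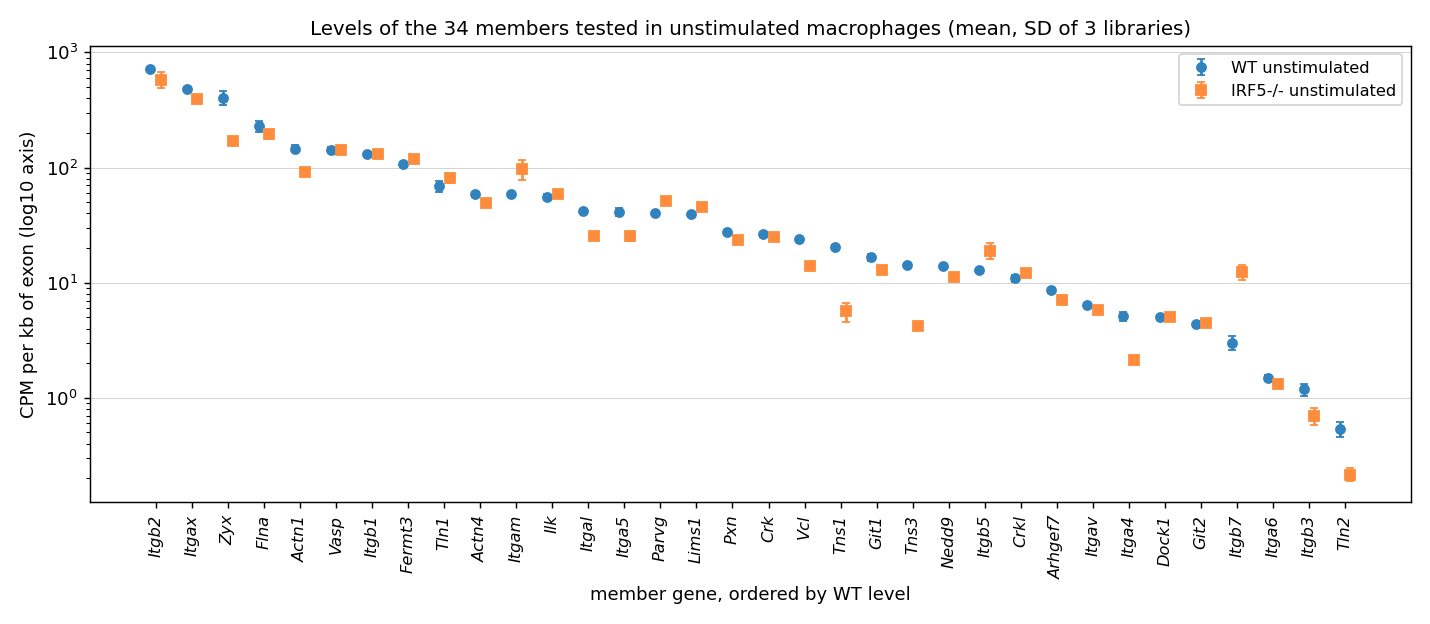
Mean CPM per kb of exon on a log10 axis for the 34 members tested in unstimulated WT (circles) and IRF5-/- (squares) BMDMs, with the SD of 3 libraries as bars, ordered by the WT level. Itgb2, Itgax and Zyx were the highest in WT, at 403 to 724 CPM per kb, and Tln2 was the lowest at 0.54.

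The LPS response asks which members move within 2 h of a bacterial stimulus. In WT BMDMs, 13 of the 34 members passed an FDR below 0.05 in edgeR (8 higher, 5 lower) where 41.8% of all genes tested did (20.6% higher, 21.2% lower). Of the members, 4 also changed beyond 2-fold, here called (2 higher, 2 lower), where 21.3% of all genes were called (11.6% higher, 9.71% lower). The median log2 fold change was 0.08 over the members and -0.0045 over all genes. Among the 4 called, 2 alpha chains rose, and a tensin and a RAC/CDC42 exchange factor fell. Markers of other cells moved with LPS in WT: the dendritic cell list summed to 117 to 125 CPM before and 381 to 494 CPM after it (Ccr7 32.9 to 41.9 and 266 to 368), the mast cell and basophil list to 10.8 to 11.7 and 45.5 to 58.2 CPM (mostly Hdc after LPS, with Cpa3, Fcer1a and Ms4a2 under 1 CPM) and the endothelial list to 3.24 to 3.64 and 16.8 to 30.1 CPM (mostly Kdr after LPS). Their part in the response of the members was not tested. The other members moved by less than 2-fold or did not pass.

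Itga4, the alpha4 chain that binds VCAM1 and fibronectin (ENSMUSG00000027009, mm10 chr2:79255426-79333123), was at 65.4, 70.3 and 77.7 CPM in unstimulated WT libraries and at 289, 376 and 376 CPM after LPS with DMSO. Itgav, the alphaV chain of the vitronectin receptors (ENSMUSG00000027087, chr2:83724397-83806916), was at 67.3, 66.6 and 70.6 CPM and then at 321, 357 and 358 CPM. For both genes every LPS library lay more than 3 times above every unstimulated one. The log2 fold changes were 2.29 for Itga4 (SE 0.24, adjusted p = 1.79e-06, edgeR) and 2.34 for Itgav (SE 0.15, adjusted p = 1.06e-08). Itga5, the fibronectin receptor chain (ENSMUSG00000000555, chr15:103344286-103366763), was at 176, 174 and 201 CPM unstimulated and 397, 440 and 382 CPM after LPS. Its libraries did not overlap, but its log2 fold change of 1.15 had an SE of 0.58 in the fit of all 18 libraries and did not pass (adjusted p = 0.128). That SE draws on the spread in every group, including IRF5-/- LPS DMSO at 36.2, 39.3 and 201.9 CPM. Itga5 was the only uncalled member beyond 2-fold here. Without replicate 3 of IRF5-/- LPS DMSO, 5 members were called for LPS in WT. The fits that each left out a library called 19.1% to 23.1% of all genes.

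Their beta partner Itgb1 rose less, by 0.54 (adjusted p = 0.00616), and Itgb5 fell by 0.52 (adjusted p = 0.00493). Itga6, the laminin receptor chain, fell by 0.58 (adjusted p = 0.00128). The beta2 family hardly moved: log2 fold changes were 0.20 for Itgal, -0.00 for Itgam, 0.08 for Itgax and -0.08 for Itgb2, none of which passed. Vinculin (Vcl) rose by 0.88 (adjusted p = 0.000271), alpha-actinin-1 (Actn1) by 0.57, Git2 by 0.49 and the adaptor Crkl by 0.81. Vasp, which promotes actin filament growth, rose by 0.33, and was at -0.05 when libraries were scaled by their size alone. With that scaling Itgb1 (0.16), Actn1 (0.20) and Git2 (0.12) did not pass either.

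Tns1 (tensin-1, which links beta tails to actin; ENSMUSG00000055322, chr1:73910231-74124449) fell in WT from 315, 334 and 337 CPM to 89.0, 90.1 and 118.7 CPM, a log2 fold change of -1.73 (SE 0.22, adjusted p = 1.11e-05). Arhgef7 (beta-PIX; ENSMUSG00000031511, chr8:11727721-11835219) fell from 134, 137 and 141 CPM to 54.3, 51.8 and 58.2 CPM, a log2 fold change of -1.32 (SE 0.20, adjusted p = 6.13e-05). Neither gene's libraries overlapped between the groups. Zyx also fell, by 0.36 (adjusted p = 0.0266), and did not pass without WT unstimulated replicate 3 or without WT LPS DMSO replicate 1 or 2.

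**Figure D3:**
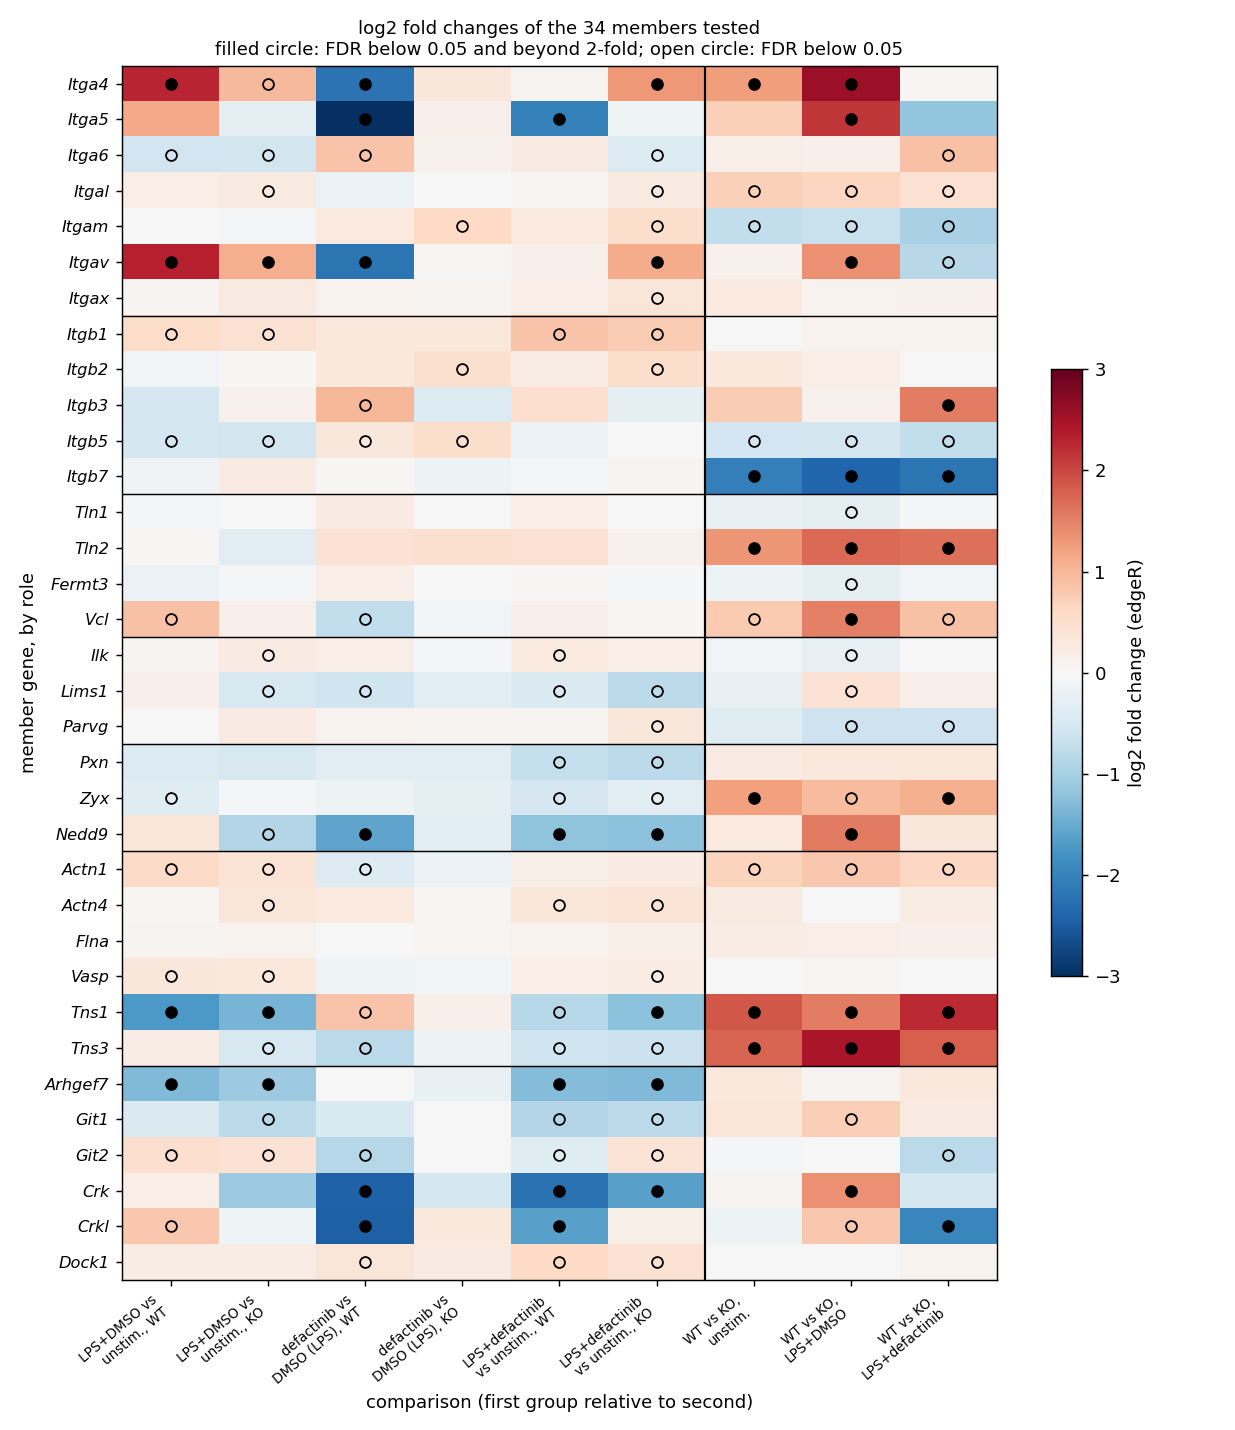
Log2 fold changes of the 34 members tested (rows, by role) in 9 comparisons (columns); red is higher and blue lower in the first group named, with colours saturating at 3, open circles mark an FDR below 0.05 and filled circles also a change beyond 2-fold. Defactinib in WT has 6 filled circles, all blue, and defactinib in IRF5-/- has none.

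Defactinib was compared with DMSO in LPS-treated WT BMDMs to see which adhesion genes change with this FAK and PYK2 inhibitor. Kinase activity in these libraries was not measured. Of the 34 members, 16 passed (5 higher, 11 lower), where 57% of all genes did (28.4% higher, 28.6% lower). All 6 members called were lower, where 29.1% of all genes were called (10.4% higher, 18.6% lower). The 6 were the alpha chains Itga4, Itga5 and Itgav and the adaptors Nedd9, Crk and Crkl. The median log2 fold change was 0.02 over the members and 0.09 over all genes.

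Itga4 was at 67.6, 47.8 and 109.7 CPM with defactinib, and Itgav at 79.2, 53.2 and 94.2 CPM. All 6 values lay below every LPS DMSO library given above and near the unstimulated range. The log2 fold changes against DMSO were -2.21 for Itga4 (SE 0.23, adjusted p = 2.07e-06) and -2.19 for Itgav (SE 0.14, adjusted p = 1.69e-08), 4.63-fold and 4.57-fold lower. Itga5 fell further, to 26.3, 19.3 and 89.8 CPM, below its unstimulated level in each library. Its log2 fold change was -3.17 (SE 0.62, adjusted p = 0.000555), and -4.14 without WT LPS defactinib replicate 3.

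Crk (ENSMUSG00000017776, chr11:75679259-75706908) and Crkl (ENSMUSG00000006134, chr16:17451987-17486255) are SH2-SH3 adaptors that bind tyrosine-phosphorylated paxillin and CAS proteins. Crk was at 139, 145 and 145 CPM with DMSO and at 26.6, 22.4 and 30.5 CPM with defactinib, a log2 fold change of -2.43 (SE 0.45, adjusted p = 0.000362). Crkl was at 72.6, 77.4 and 72.9 CPM and then at 14.9, 10.3 and 15.6 CPM, a log2 fold change of -2.45 (SE 0.14, adjusted p = 4.33e-09). Both genes were far lower in every defactinib library than in any DMSO library. Nedd9 (CAS-L; ENSMUSG00000021365, chr13:41309916-41487320), a docking protein of the same CAS family as the barely expressed Bcar1, was at 84.0, 72.4 and 97.0 CPM and then at 33.1, 24.4 and 27.5 CPM, a log2 fold change of -1.58 (SE 0.28, adjusted p = 0.000215).

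**Figure D4:**
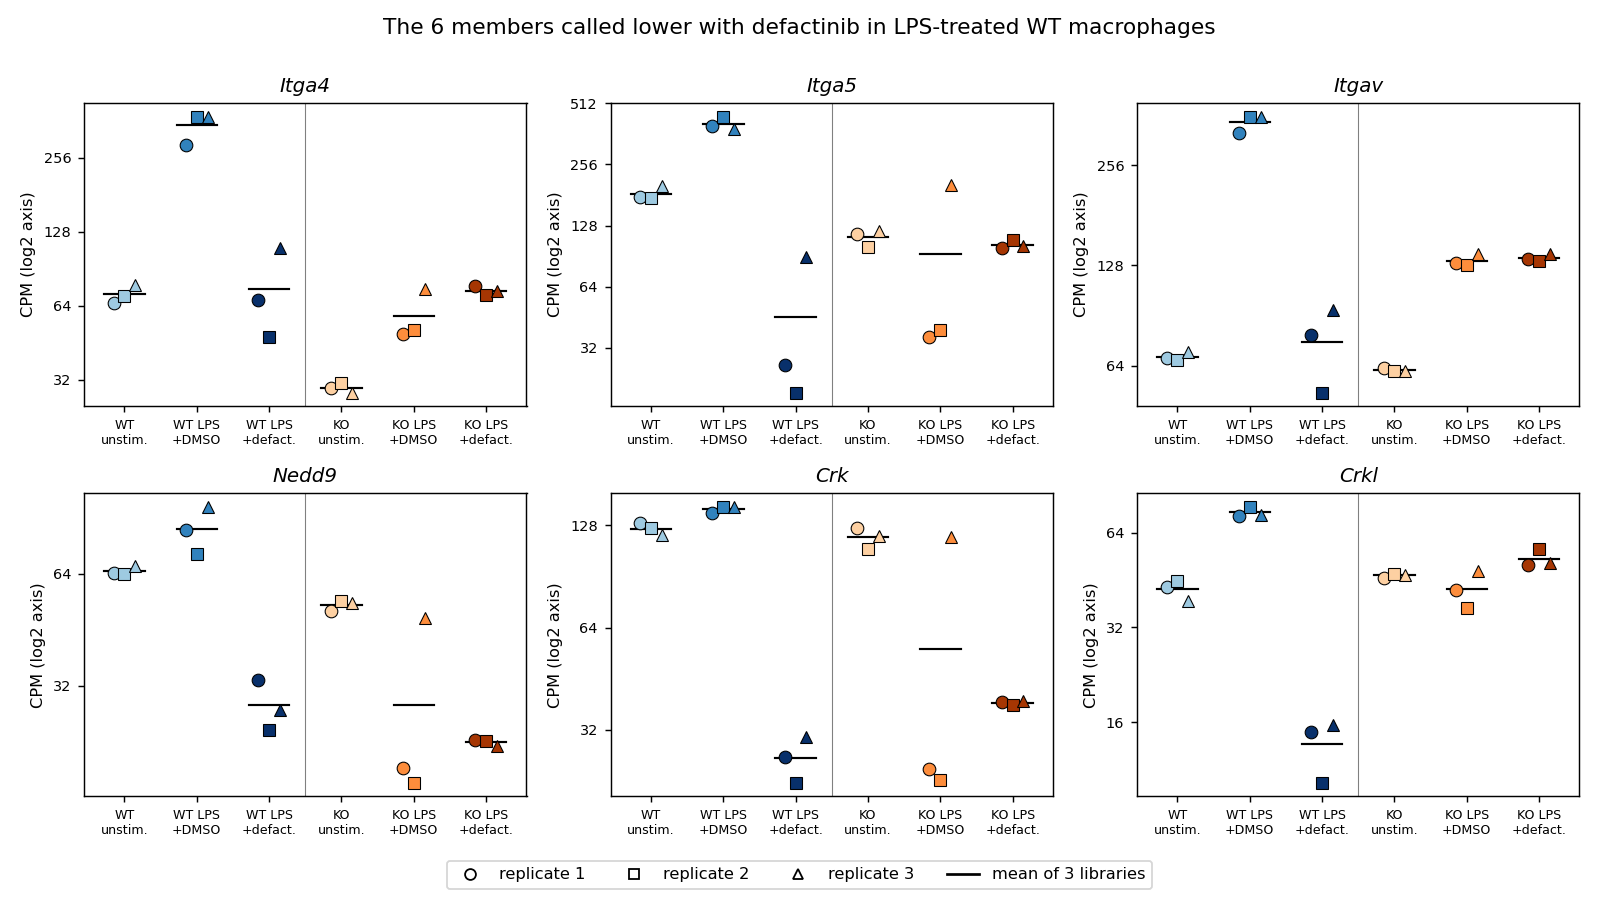
CPM on a log2 axis in each library of the 6 groups for Itga4, Itga5, Itgav, Nedd9, Crk and Crkl; symbols mark the replicate number and lines the mean of 3 libraries. In WT every defactinib library lies below every LPS DMSO library, and in IRF5-/- LPS DMSO replicate 3 stands above replicates 1 and 2 for Itga5, Nedd9 and Crk.

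Smaller falls passed for Vcl (-0.73), Git2 (-0.85), Tns3 (-0.81), the PINCH gene Lims1 (-0.59) and Actn1 (-0.39), with adjusted p of 5.96e-06 to 0.00671. Lims1 and Actn1 did not pass with library size alone. Tns1 rose by 0.86 (adjusted p = 0.00274) and Itga6 by 0.86 (adjusted p = 3.71e-05), each against its direction under LPS. Itgb3, the platelet and osteoclast partner of alphaV, rose by 0.99 (adjusted p = 0.0106) from 5.7, 3.9 and 5.2 CPM to 14.4, 10.5 and 4.5 CPM. Its groups overlapped, since replicate 3 with defactinib lay within the DMSO range, and it did not pass without defactinib replicate 1. Itgb5 (0.35) and Dock1 (0.36) passed narrowly, with adjusted p of 0.0374 and 0.0491, and over 26 other fits Dock1 did not pass in 16 and Itgb5 in 6. The beta2 integrins, Tln1, Fermt3, Flna, Vasp, Zyx, Pxn and Arhgef7 did not pass.

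RNA composition moved with this comparison. Gm26917 took 2.18% to 4.15% of counts with defactinib and 0.0112% to 0.0122% with DMSO, Gm42418 1.65% to 2.09% against 0.346% to 0.454%, and mitochondrial genes 1.05% to 1.26% against 0.671% to 0.913%. The 8 dendritic cell markers summed to 69.0 to 123 CPM with defactinib and 381 to 494 CPM with DMSO. Ccr7 (8.78 to 47.6 against 266 to 368 CPM) and Zbtb46 (20 to 30.2 against 86.5 to 97.2 CPM) were lower with defactinib, whereas Dpp4 (22.7 to 37.4 against 10 to 13 CPM) and Clec9a (9.38 to 10.1 against 4.45 to 5.87 CPM) were higher, and Xcr1 and Siglech were at or below 0.37 CPM. Their part in the falls of these members was not tested, and in bulk RNA fewer cells of a type and less RNA per cell cannot be told apart.

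The promoters of the members that fell together are shown because they are the sequences next to the start sites of Itga4, Itga5, Itgav, Crk and Crkl. RefSeq promoter windows (build GRCm38.p6, the assembly also named mm10) were found for 29 of the 36 members, and none was found for Itga6, Itgal, Itgb2, Itgb3, Tln2, Parva and Pxn. The 250 bases before each start were searched on both strands for the CArG box of SRF, the kappaB site, the ISRE, the AP-1 site (TGANTCA) and the GC box (GGGCGG). Capitals mark matches to any of these, each line runs 5′ to 3′ along the gene, and the Nedd9 window is left out because it lies almost wholly within annotated exons.

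Itga4 (chr2:79255176-79255425, plus strand): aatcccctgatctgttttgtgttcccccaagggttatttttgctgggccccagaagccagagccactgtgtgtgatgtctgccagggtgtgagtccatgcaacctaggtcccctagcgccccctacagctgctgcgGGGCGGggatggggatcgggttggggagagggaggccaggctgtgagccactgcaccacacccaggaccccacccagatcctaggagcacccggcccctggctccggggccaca
Itga5 (chr15:103366792-103367041, minus strand): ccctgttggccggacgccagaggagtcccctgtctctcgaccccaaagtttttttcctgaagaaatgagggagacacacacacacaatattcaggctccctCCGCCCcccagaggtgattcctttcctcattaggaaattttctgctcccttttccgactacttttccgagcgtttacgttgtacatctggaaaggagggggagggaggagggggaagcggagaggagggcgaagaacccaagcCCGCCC
Itgav (chr2:83724147-83724396, plus strand): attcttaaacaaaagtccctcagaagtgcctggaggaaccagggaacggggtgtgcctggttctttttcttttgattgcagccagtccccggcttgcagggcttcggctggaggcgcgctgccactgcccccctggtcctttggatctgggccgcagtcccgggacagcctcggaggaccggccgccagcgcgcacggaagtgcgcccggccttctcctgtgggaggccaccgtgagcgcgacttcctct
Crk (chr11:75679009-75679258, plus strand): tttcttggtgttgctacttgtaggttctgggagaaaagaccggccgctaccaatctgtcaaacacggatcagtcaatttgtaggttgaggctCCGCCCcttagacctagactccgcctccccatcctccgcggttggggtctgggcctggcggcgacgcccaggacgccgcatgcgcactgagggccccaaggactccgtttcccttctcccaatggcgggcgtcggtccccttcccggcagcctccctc
Crkl (chr16:17451735-17451984, plus strand): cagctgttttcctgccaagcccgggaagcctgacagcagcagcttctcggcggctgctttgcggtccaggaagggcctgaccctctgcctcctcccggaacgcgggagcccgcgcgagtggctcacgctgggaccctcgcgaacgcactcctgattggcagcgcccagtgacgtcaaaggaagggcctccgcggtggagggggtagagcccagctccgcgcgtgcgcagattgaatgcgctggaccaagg

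The GC box was the only one of these motifs in the 5 windows shown, on either strand. It was found once in Itga4, 2 times in Itga5, once in Crk and not in Itgav or Crkl. The 29 members had 38 windows, as some genes have several starts, and the GC box was in 68.4% of these and in 32.7% of all 32851 windows of the same length. The kappaB site occurred in 7.89% of the member windows (Vcl, Ilk and Flna) and 7.25% of all windows, the AP-1 site in 7.89% (Itgax, Zyx and Actn4) and 6.75%, the CArG box in Vcl alone (1.47% of all windows) and the ISRE in no member (2.98% of all windows). These are matches of letters within a short window only. All windows were counted whether or not their gene is expressed in BMDMs. Some member windows overlap each other (Git1 and Git2), and those of Ilk and Tln1 lie wholly within exons. Whether member promoters differ from those of other expressed genes was not tested.

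Against unstimulated WT cells, LPS with defactinib left 16 members past the FDR (4 higher, 12 lower) where 53.2% of all genes passed (25.9% higher, 27.4% lower). All 5 called were lower, where 24.9% of all genes were called (9.1% higher, 15.8% lower). Over these groups the neutrophil list went from at most 270.0 CPM to 343 to 469 CPM. The macrophage list went from 9690 to 10038 CPM to 10558 to 14999 CPM. Mitochondrial genes went from 0.641% to 0.709% of counts to 1.05% to 1.26%. Gm26917 went from at most 0.0154% to 2.18% to 4.15%, and Gm42418 from 0.184% to 1.44% to 1.65% to 2.09%. The part of these shifts was not tested. This comparison shares libraries with those above, so its values are given side by side and not as a further test. Itga4 (0.08) and Itgav (0.15) did not pass. Itga5 (-2.03, adjusted p = 0.0104, and -3.0 without defactinib replicate 3), Crk (-2.24, adjusted p = 0.000915), Crkl (-1.64, adjusted p = 4.42e-07) and Nedd9 (-1.20, adjusted p = 0.00213) were below their unstimulated levels. Arhgef7 was as low as with LPS alone, at 55.9, 49.5 and 61.3 CPM (-1.30, adjusted p = 0.0001), and Tns1 was between its unstimulated and LPS levels at 177, 143 and 222 CPM (-0.86, adjusted p = 0.00343). Paxillin (Pxn) was lower by 0.73 (adjusted p = 0.00525), Git1 by 0.88 and Zyx by 0.51, while Itgb1 was higher by 0.85 (adjusted p = 0.000244) and Dock1 by 0.59.

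In IRF5-/- BMDMs the same LPS comparison passed for 17 of 34 members (9 higher, 8 lower), where 37.5% of all genes did (18.5% higher, 19% lower). It called 3 (1 higher, 2 lower), where 13.3% of all genes were called (7.07% higher, 6.28% lower). Itgav was called higher, and Tns1 and Arhgef7 lower. The dendritic cell list went from 124 to 170 CPM to 214 to 276 CPM with LPS, and its part was not tested. Without LPS DMSO replicate 3, 23 passed and 7 were called (1 higher, 6 lower), where 58.3% of all genes passed and 26.2% were called. With replicate 3 alone in its group, 5 passed and 2 were called, both higher, where 4.76% and 2.71% of all genes did. A lone library is there assumed to vary like the other groups.

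Itgav was at 63.2, 61.6 and 61.6 CPM in unstimulated and 130.1, 128.5 and 138.5 CPM in LPS DMSO IRF5-/- libraries. All 3 LPS libraries were alike and above the unstimulated ones, with a log2 fold change of 1.09 (SE 0.14, adjusted p = 0.000146), 1.05 without replicate 3 and 1.17 with it alone. Itga4 went from 29.6, 31.1 and 28.4 CPM to 49.0, 50.9 and 74.6 CPM, a log2 fold change of 0.97 (SE 0.23, adjusted p = 0.00627), 0.75 without replicate 3 and 1.34 with it alone. The rises of both alpha chains passed with either set of libraries, as did the falls of Tns1 and Arhgef7, though Itga4, Tns1 and Arhgef7 did not pass in a fit of these groups alone. Tns1 went from 95.3, 71.7 and 104 CPM to 27.7, 27.1 and 48.6 CPM (-1.39, adjusted p = 0.000652), -1.72 without replicate 3 and -0.88 with it alone. Arhgef7 went from 110.7, 105.0 and 115.5 CPM to 40.1, 37.7 and 77.6 CPM (-1.09, adjusted p = 0.00179), -1.5 without replicate 3 and -0.49 with it alone.

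For Crk, Itga5 and Nedd9 the IRF5-/- LPS value turned on which libraries were kept. Crk was at 126, 109 and 119 CPM unstimulated, and its log2 fold change of -1.09 did not pass with all 3 libraries (adjusted p = 0.0574), was -2.32 without replicate 3 (adjusted p = 4.40e-11) and 0.02 with it alone. Itga5 was at 116, 101 and 121 CPM unstimulated, with log2 fold changes of -0.28, -1.58 and 0.86 in the same order, of which the second passed (adjusted p = 0.0141). Nedd9 went from 50.9, 54.1 and 53.6 CPM to 19.3, 17.6 and 48.6 CPM, with log2 fold changes of -0.89 (adjusted p = 0.0209), -1.52 and -0.11, of which the last did not pass. With all groups fitted, it also did not pass without replicate 1 or 2 of the LPS group or without unstimulated replicate 2 or 3. Crkl was at 46.1, 47.5 and 46.9 CPM and then at 42.2, 37.0 and 48.3 CPM, and did not pass in any of the 3 fits.

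Defactinib against DMSO in LPS-treated IRF5-/- cells gave 3 members past the FDR, Itgam (0.59, adjusted p = 0.0312), Itgb2 (0.49, adjusted p = 0.0489) and Itgb5 (0.53, adjusted p = 0.0444), all higher, where 3.36% of all genes passed (1.87% higher, 1.49% lower). No member was called by edgeR, where 0.919% of all genes were (0.16% higher, 0.76% lower), by DESeq2 or by limma-voom, and 7 had an unadjusted p below 0.05 in edgeR. No share of all genes was computed here for DESeq2, for limma-voom or for the unadjusted p, so these counts cannot be set against all genes. Over 27 fits (the alternatives and each library left out), Itgb2 and Itgb5 each did not pass in 17 and Itgam in 6. The neutrophil list summed to 1178 to 1717 CPM with DMSO and 2537 to 2722 CPM with defactinib, mostly Mmp8, with Ly6g, Mpo and Elane at or below 1.09 CPM. The macrophage list was at 9532 to 11931 and 17595 to 18517 CPM. The megakaryocyte and platelet list was at 808 to 1176 and 1262 to 1356 CPM. Mitochondrial genes took 0.514% to 0.797% and 0.835% to 0.926% of counts. The part of these shifts was not tested. Without LPS DMSO replicate 3 the count called was again 0 and Itgam, Itgb5 and Crk (0.70, adjusted p = 0.00111) passed, all higher with defactinib, where 7.83% of all genes passed and 1.45% were called. With replicate 3 alone in its group, 16 passed and 2 were called, Crk (-1.64, adjusted p = 3.32e-08) and Nedd9 (-1.12, adjusted p = 9.17e-06), where 41% of all genes passed and 19.2% were called. The defactinib libraries themselves were tight: Crk was at 38.6, 37.8 and 39.0 CPM, Nedd9 at 22.8, 22.8 and 22.1, Itga5 at 99.6, 108 and 102, Itga4 at 76.8, 71.0 and 73.3, Itgav at 134, 132 and 138, and Crkl at 50.7, 56.9 and 51.4 CPM. These compare with WT defactinib levels of 10.3 to 15.6 CPM for Crkl and 47.8 to 109.7 CPM for Itga4.

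The contrast of IRF5-/- LPS defactinib with unstimulated IRF5-/- does not use the LPS DMSO group for its fold changes. That group still enters the spread estimated over all 6 groups, and so the adjusted p-values of this contrast. The contrast passed for 22 of 34 members (12 higher, 10 lower), where 53.4% of all genes did (25.4% higher, 28% lower). It called 6, where 24% of all genes were called. The neutrophil list went from 1091 to 1707 CPM unstimulated to 2537 to 2722 CPM, the dendritic cell list from 124 to 170 CPM to 271 to 282 CPM, the macrophage list from 10001 to 14208 CPM to 17595 to 18517 CPM, the megakaryocyte and platelet list from 617 to 895 CPM to 1262 to 1356 CPM and mitochondrial genes from 0.477% to 0.540% of counts to 0.835% to 0.926%, and their part was not tested. Of the 6, Itga4 (1.31, adjusted p = 0.000367) and Itgav (1.12, adjusted p = 3.97e-05) were higher, against 7.85% of all genes, and Nedd9 (-1.23, adjusted p = 0.00179), Tns1 (-1.23, adjusted p = 0.000346), Arhgef7 (-1.32, adjusted p = 0.000139) and Crk (-1.62, adjusted p = 0.00619) were lower, against 16.2%. Tns1 was at 37.6, 40.5 and 37.4 CPM and Arhgef7 at 47.2, 45.8 and 39.7 CPM in these libraries. In this genotype Itga5 (-0.13) and Crkl (0.18) did not pass, whereas in WT the matching values were -2.03 and -1.64. Itgb1 (0.77), Itgb2 (0.53) and Itgam (0.52) were higher and Pxn (-0.78), Git1 (-0.80) and Lims1 (-0.79) lower, of which Itgb2 and Itgam did not pass with library size alone.

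The test of the difference between genotypes in the defactinib effect passed for 11 members (2 higher, 9 lower in WT relative to IRF5-/-), where 37% of all genes did (18.4% higher, 18.5% lower). It called 7 (1 higher, 6 lower), where 22.8% of all genes were called (10.5% higher, 12.3% lower). The difference of log2 fold changes was -2.22 for Itgav (SE 0.20, adjusted p = 8.20e-07), -2.77 for Crkl (SE 0.19, adjusted p = 5.77e-08) and -2.55 for Itga4 (SE 0.32, adjusted p = 2.40e-05). These 3 also passed with IRF5-/- LPS DMSO replicate 3 left out (-2.25, -2.87 and -2.77) and with it alone (-2.12, -2.55 and -2.16). Itga5 (-3.33, adjusted p = 0.00559), Crk (-1.91, adjusted p = 0.0233) and Nedd9 (-1.24, adjusted p = 0.0196) were less settled. Without replicate 3 they were at -4.62, -3.13 and -1.87, and with it alone at -2.17 (adjusted p = 0.0571), -0.78 and -0.44 (adjusted p = 0.0775). Itga5 was at -4.28 without WT LPS defactinib replicate 3, Crk did not pass without WT LPS defactinib replicate 2 (adjusted p = 0.0564), and Nedd9 did not pass without that library or without WT LPS DMSO replicate 3. Neither gene passed with library size alone or in a fit of only the groups compared, and Crk did not pass with no filter on low counts. Itgb3, higher at 1.41 (adjusted p = 0.0166), did not pass with IRF5-/- LPS DMSO replicate 3 alone.

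The LPS effect differed between genotypes for 5 members, all higher in WT, where 17.1% of all genes passed (9.77% higher, 7.35% lower). Of these, 3 were called, where 9.83% of all genes were (6.33% higher, 3.49% lower). They were Itgav (1.25, SE 0.20, adjusted p = 0.000874), Itga4 (1.32, SE 0.32, adjusted p = 0.0121) and Nedd9 (1.26, SE 0.38, adjusted p = 0.034). Itgav was at 1.28 without IRF5-/- LPS DMSO replicate 3 and 1.16 with it alone, and passed both times. Itga4 did not pass with that library alone (0.94, adjusted p = 0.132), and Nedd9 did not pass in 10 of the 18 fits that each left out 1 library, with library size alone, with no filter or in a fit of only the groups compared. Nedd9 was at 1.89 without IRF5-/- LPS DMSO replicate 3 and 0.47 with it alone (adjusted p = 0.109). Without that library 6 members were called, where 23.6% of all genes were.

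The comparison of genotypes before stimulation shows how IRF5-/- BMDMs differ in their adhesion genes with no LPS. Among the 34 members 11 passed (8 higher in WT, 3 lower), where 15.3% of all genes did (7.93% higher, 7.37% lower). Of the members 6 were called, where 7.31% of all genes were (3.8% higher, 3.51% lower). Itga4, Tln2, Zyx, Tns1 and Tns3 were higher in WT, and Itgb7 was higher in IRF5-/-. The median log2 difference, WT minus IRF5-/-, was 0.23 over the members and -0.01 over all genes.

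Itgb7, the beta7 chain that pairs with alpha4 to bind MADCAM1 (ENSMUSG00000001281, chr15:102215995-102231935), was at 9.2, 8.7 and 7.0 CPM in unstimulated WT and 30.4, 39.9 and 32.1 CPM in unstimulated IRF5-/- libraries. It was 4.12-fold higher in IRF5-/- (log2 difference -2.04, SE 0.30, adjusted p = 0.000211) with no overlap, and remained so after LPS (-2.38, adjusted p = 1.81e-05) and with defactinib (-2.18, adjusted p = 4.36e-05). Its levels did not pass for LPS or for defactinib in either genotype. Itgam, the alphaM chain, was at 284 to 305 CPM in unstimulated WT against 382 to 566 CPM in IRF5-/- (-0.73, adjusted p = 0.00105), whereas Itgal went the other way at 272 to 280 CPM against 164 to 174 CPM (0.71, adjusted p = 5.44e-05).

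The tensins Tns1 and Tns3 and zyxin were lower in IRF5-/- cells, while Tns4, a tensin outside the members singled out after its values were seen, was higher there (38.4 to 40.6 against 15.7 to 17.2 CPM; log2 difference -1.26, adjusted p = 0.000189). Tns1 was 3.63-fold higher in WT (log2 difference 1.86, SE 0.22, adjusted p = 2.24e-05) at the values given above. Tns3 (ENSMUSG00000020422, chr11:8431652-8664535) was at 158, 160 and 159 CPM in unstimulated WT and 47.1, 44.2 and 51.1 CPM in IRF5-/- (1.74, SE 0.17, adjusted p = 5.11e-06). Neither tensin's libraries overlapped. After LPS with DMSO, Tns3 was at 182, 174 and 199.8 CPM in WT and 29.1, 28.9 and 43.3 CPM in IRF5-/- (2.45, adjusted p = 1.03e-07), and with defactinib at 106.5, 76.6 and 134 CPM against 30.0, 31.5 and 29.9 CPM (1.79, adjusted p = 1.18e-06). Zyx (ENSMUSG00000029860, chr6:42349630-42360213) was at 1959, 2035 and 2516 CPM against 912, 843 and 1005 CPM (1.24, SE 0.12, adjusted p = 4.65e-06). It ran from 1454 to 1919 CPM in WT and 868 to 898 CPM in IRF5-/- after LPS with DMSO, and from 1417 to 1657 CPM against 665 to 809 CPM with defactinib.

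Tln2, the lowly expressed second talin (ENSMUSG00000052698, chr9:67217087-67559703), was at 8.2, 10.4 and 11.1 CPM in unstimulated WT and 3.7, 3.6 and 4.5 CPM in IRF5-/- (1.32, SE 0.21, adjusted p = 0.000397), and the abundant Tln1 did not pass (-0.23). In the other libraries Tln2 ran from 7.4 to 14.5 CPM in WT and from 2.6 to 4.9 CPM in IRF5-/-, with no overlap. Itga4 was 2.40-fold higher in unstimulated WT (1.26, SE 0.23, adjusted p = 0.00129). Vcl (0.78, adjusted p = 0.0025) and Actn1 (0.66, adjusted p = 0.000398) were also higher in WT, and Itgb5 lower (-0.57, adjusted p = 0.00796). The ILK complex, the GIT-PIX and CRK-DOCK genes and Itgb1, Itgb2 and Itgax did not pass.

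**Figure D5:**
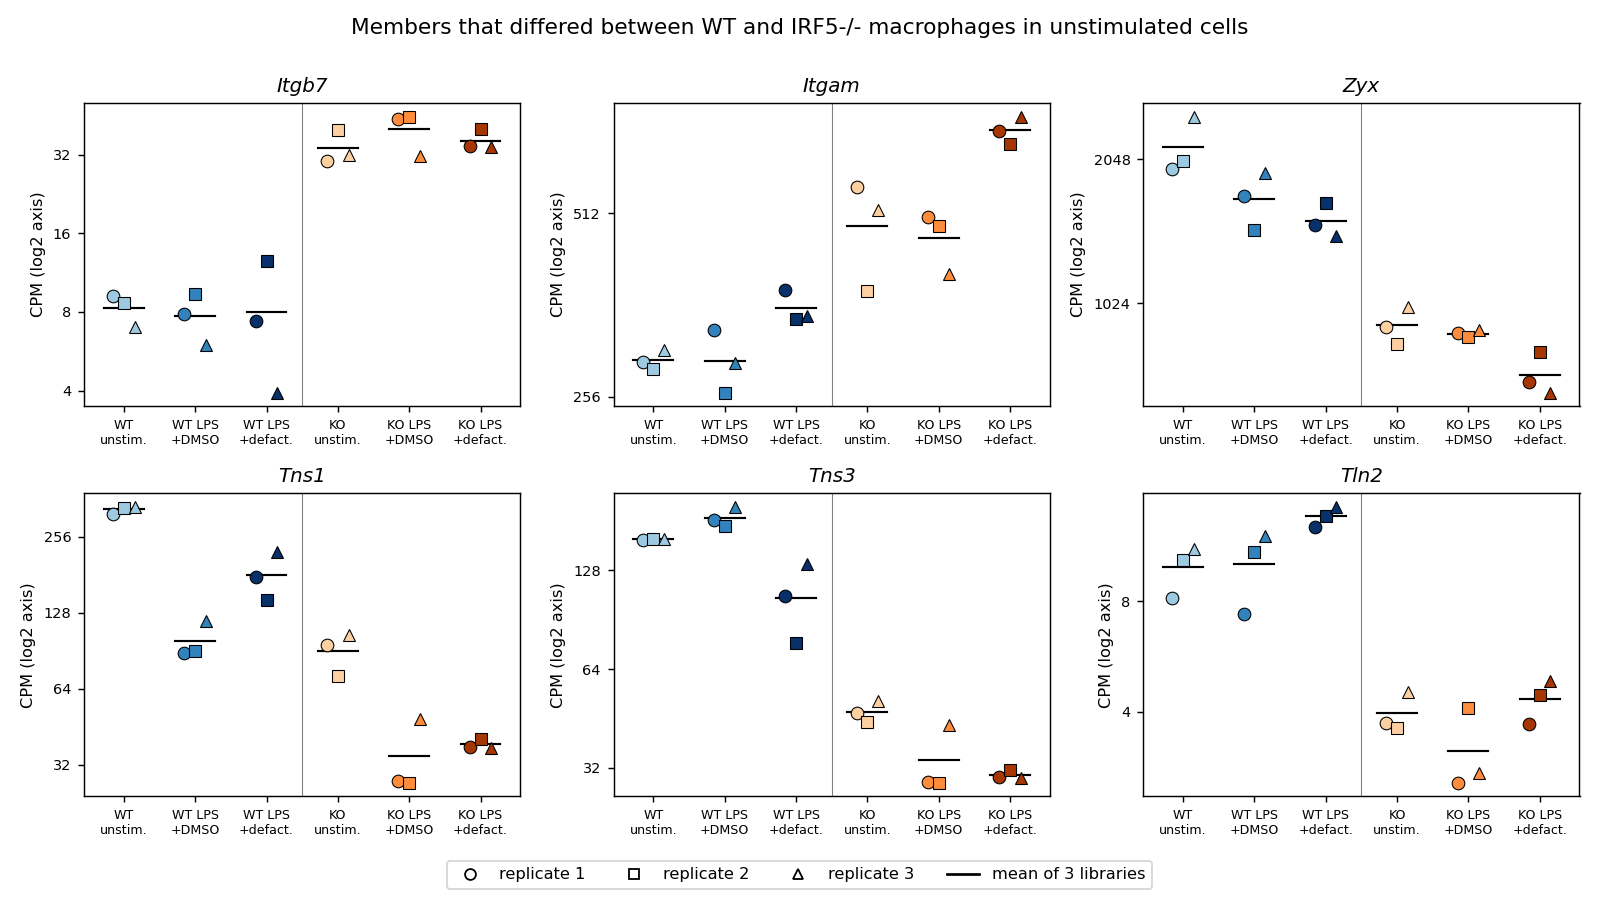
CPM on a log2 axis in each library of the 6 groups for Itgb7, Itgam, Zyx, Tns1, Tns3 and Tln2; symbols mark the replicate number and lines the mean of 3 libraries. In unstimulated cells every IRF5-/- library lies above every WT library for Itgb7 and Itgam, and below for Zyx, Tns1, Tns3 and Tln2.

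Markers of other cell types moved with the genotype. The neutrophil list (10 genes) summed to at most 270.0 CPM in unstimulated WT and to 1091 to 1707 CPM in IRF5-/- libraries, of which Mmp8 made up 169 to 205 and 1001 to 1620 CPM, while Ly6g, Mpo and Elane each stayed at or below 0.58 CPM. The mast cell and basophil list (10 genes) summed to 10.8 to 11.7 against 49.4 to 57.5 CPM, with Gata2 at 3.16 to 3.35 against 30.8 to 34.1 CPM and with Cpa3, Fcer1a and Ms4a2 at or below 0.43 CPM. Macrophage markers, mostly Lyz2, summed to 9690 to 10038 against 10001 to 14208 CPM, with Adgre1 lower in WT (70.3 to 75.2 against 291 to 320 CPM) and Mrc1 higher (179 to 183 against 51.7 to 75.3 CPM). Dendritic cell markers summed to 117 to 125 against 124 to 170 CPM, with Dpp4 lower in WT (6.0 to 7.15 against 22.6 to 40.8 CPM) and Zbtb46 higher (59.4 to 62.0 against 30.6 to 42.1 CPM). Their part in the difference of these members was not tested.

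After LPS with DMSO 22 members differed between genotypes (15 higher in WT, 7 lower), where 52.2% of all genes did (25.3% higher, 26.9% lower). Of the members 10 were called (9 higher, 1 lower), where 25.8% of all genes were (14% higher, 11.8% lower). The neutrophil list summed to 326 to 419 CPM in WT and 1178 to 1717 CPM in IRF5-/-, the dendritic cell list to 381 to 494 and 214 to 276 CPM and the endothelial list to 16.8 to 30.1 and 2.42 to 9.69 CPM, and their part was not tested. Besides Itgb7, Tln2, Tns1 and Tns3, these were Itga4 (2.58), Itgav (1.38), Itga5 (2.14), Vcl (1.52), Nedd9 (1.57) and Crk (1.37), all higher in WT. Without IRF5-/- LPS DMSO replicate 3, 24 passed and 11 were called, where 65.5% and 34.5% of all genes did, and with it alone 18 passed and 7 were called, where 32.9% and 16% did. Itga5 was then at 3.43 without and 0.99 with that library alone (adjusted p = 0.271), Crk at 2.59 and 0.25 (adjusted p = 0.152) and Nedd9 at 2.20 and 0.78 (adjusted p = 0.000969). Crk also did not pass without replicate 1 (adjusted p = 0.0658) or replicate 2 (adjusted p = 0.0592) of that group, with library size alone or with no filter, and neither Crk nor Itga5 passed in a fit of only the groups compared. Itga4 (2.80 and 2.20), Itgav (1.41 and 1.30), Vcl (1.77 and 1.09), Itgb7 (-2.52 and -2.05), Tns3 (2.67 and 2.08), Tln2 (1.6 and 1.87) and Tns1 (1.86 and 1.01) passed both times.

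With LPS and defactinib 16 members differed (9 higher in WT, 7 lower), where 36.3% of all genes did (18.3% higher, 18% lower). Of the members 7 were called (5 higher, 2 lower), where 17.3% of all genes were (8.45% higher, 8.87% lower). Here the neutrophil list summed to 343 to 469 CPM in WT and 2537 to 2722 CPM in IRF5-/-, the dendritic cell list to 69.0 to 123 and 271 to 282 CPM and the macrophage list to 10558 to 14999 and 17595 to 18517 CPM, and their part was not tested. Tns1 (2.23), Tns3, Tln2 (1.65), Zyx (1.07) and Itgb3 (1.53, adjusted p = 0.00101) were higher in WT, and Itgb7 and Crkl were higher in IRF5-/-. For Crkl the log2 difference was -1.96 (SE 0.14, adjusted p = 4.00e-08), while unstimulated Crkl did not pass (-0.15). Itgav (-0.84, adjusted p = 0.000223) and Git2 (-0.81, adjusted p = 1.40e-05) were also lower in WT here, although neither passed in unstimulated cells.

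The wider adhesion pathway was read from 74 further genes, of which 62 were tested. In LPS-treated WT cells 14 of these were called (7 higher, 7 lower; all genes 21.3%), and with defactinib 16 (8 higher, 8 lower; all genes 29.1%). Itgb8, the beta chain that pairs only with alphaV, was at 2.4 to 2.9 CPM unstimulated, 107 to 137 CPM after LPS and 1.3 to 4.3 CPM with defactinib (log2 fold changes of 5.62, adjusted p = 8.93e-06, and -5.26, adjusted p = 1.24e-05). Tns4 (-2.32) and the DOCK partner Elmo2 (-1.96) fell with LPS. With defactinib Cass4, a further CAS family gene, fell by 2.77 (adjusted p = 6.88e-06), and Tns4 rose by 2.14 (adjusted p = 4.45e-07) and Itga3 by 1.41 (adjusted p = 0.0162), the latter at under 1 CPM. Of the kinases that defactinib inhibits, Ptk2b fell with it in WT by 0.62 (adjusted p = 2.44e-05) from 162 to 172 CPM to 101 to 122 CPM, and Ptk2 rose by 0.48 (adjusted p = 0.0129).

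In the same list 16 genes were called between unstimulated genotypes (4 higher in WT, 12 lower), where 7.31% of all genes were (3.8% higher, 3.51% lower). Sorbs3 (vinexin, which binds vinculin; 4.18, adjusted p = 1.09e-05) and the matrix protein Tnc (3.59, adjusted p = 6.82e-07) were the highest in WT relative to IRF5-/-. Lama5 (-3.82, adjusted p = 2.47e-05) and Itga2b (-2.76, adjusted p = 1.86e-05) were the lowest. Sorbs3 was at 4.28 to 4.61 CPM in WT and 0.12 to 0.31 CPM in IRF5-/- libraries. Lama5 was at 0.06 to 0.25 against 2.38 to 2.89 CPM, so both genes were near the floor in the lower genotype. Tnc stood at 99.7 to 159 CPM in WT and 8.3 to 11.9 CPM in IRF5-/- libraries. Itga2b, a megakaryocyte marker, ran from 0.83 to 1.44 against 5.77 to 10.3 CPM. Of the other 5 genes of the megakaryocyte and platelet list, Gp9, Gp1bb and Gp6 were at or below 0.15 CPM in those libraries, while Pf4 was at 201 to 217 against 194 to 330 CPM and Ppbp at 546 to 608 against 412 to 559 CPM.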

How the data were processed

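The deposited table holds raw counts, and per the file headers and the authors' methods these are uniquely mapped read pairs per gene, aligned to mm10 with STAR and counted by featureCounts 1.6.3 over exons, with no normalization. Reads were counted on the reverse strand. Symbols were matched by ID for 50376 of 50600 genes. The members and the lists were chosen with earlier results of these data known.

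All 18 libraries were fitted together by edgeR 4.0.16 (R 4.3.3; TMM, filterByExpr, 1 mean per group) with a two-sided quasi-likelihood F test and Benjamini-Hochberg adjustment over the 15663 genes of each comparison. A gene passed at an FDR below 0.05 and was called if also beyond 2-fold. SE is the size of the log2 fold change over the square root of F. On data simulated for defactinib in WT (14558 genes, 200 of them changed), 100% of genes changed by 1.5 or by 2 on the log2 scale were recovered. The simulation used the same small dispersion for every gene, changed no lowly expressed gene and held no outlying library. It therefore does not give the power for members whose libraries spread more widely. Members called in the main comparisons are given by library. Outside the members, Irf5, Ptk2, Ptk2b, markers and at most 4 called genes per comparison are named, and also Tns4 between unstimulated genotypes, which was chosen after its values were seen. Replicate numbers were not taken as pairs (median residual correlation of 0.02 over 45 pairs). Alternatives included DESeq2 1.42.0 and limma-voom 3.58.1. The chi-square between libraries is per gene with at least 20 counts. 1 gene outside the members is not reported here.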

Additional observations from a re-analysis of the deposited data

Results flagged for a closer look

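The effect of defactinib on LPS-treated cells differed between WT and IRF5-/- BMDMs, by the interaction term of the edgeR fit, for 11 of 34 members, where 37% of all genes did. The difference of log2 fold changes (WT minus IRF5-/-) was -2.55 for Itga4, -3.33 for Itga5, -2.22 for Itgav, -1.24 for Nedd9, -1.91 for Crk and -2.77 for Crkl. Smaller differences were -0.83 for Git2 (adjusted p = 0.000321), -0.64 for Vcl (adjusted p = 0.0298) and -0.66 for Tns3 (adjusted p = 0.0422). Itgb3 at 1.41 and Itga6 at 0.73 (adjusted p = 0.00419) differed in the other direction. Without and with only IRF5-/- LPS DMSO replicate 3, Git2 (-0.79 and -0.90) and Itga6 (0.69 and 0.84) passed both times. Vcl (-0.90 and -0.21), Tns3 (-0.88 and -0.27) and Itgb3 (1.52 and 1.2) passed without it but not with it alone, and over 27 fits Tns3 did not pass in 21 and Vcl in 12.

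The effect of LPS differed between genotypes for 5 of 34 members, where 17.1% of all genes did, by 1.32 for Itga4, 1.25 for Itgav, 1.26 for Nedd9, 0.74 for Vcl (adjusted p = 0.0303) and 0.95 for Crkl (adjusted p = 0.00341). All 16 differences use the IRF5-/- LPS DMSO group, whose replicate 3 stands apart from replicates 1 and 2 and whose labels could not be settled from the files. Without it, Vcl was at 1.00 and Crkl at 1.06 for LPS, and both passed. With replicate 3 alone in that group, Crkl (0.75, adjusted p = 0.02) and Itgav still passed for LPS, and Vcl did not (0.31, adjusted p = 0.278).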

How the results depend on the processing

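Each of 152 member results past the FDR was recomputed under 8 other fits, and 1119 of the 1216 values kept their direction and passed, 92 no longer passed and 5 turned. All 5 turned with library size alone in place of TMM: Vasp for LPS in WT (-0.049) and for LPS with defactinib in IRF5-/- (-0.14), Ilk for LPS in IRF5-/- (-0.0079), and Itgal (-0.088) and Parvg (-0.022) for LPS with defactinib in IRF5-/-. Ptk2b for LPS in WT went to -0.37 there. That scaling moves the median of all genes by -0.38 for LPS in WT and 0.20 for defactinib in WT, so that small changes are relative to it. Lims1 turned with IRF5-/- LPS DMSO replicate 3 alone in its group, an alternative chosen after the data were seen, to 0.018 for LPS in IRF5-/- and -0.081 between genotypes after LPS. With that group the members called were 2 for defactinib in IRF5-/-, 4 for genotype by defactinib and 1 for genotype by LPS, where 19.2%, 19.1% and 6.48% of all genes were. For LPS in IRF5-/-, 5 were called with library size alone and with limma-voom, where 16.5% and 13.9% of all genes were, and 1 in a fit of the groups compared, where 1.08% were.

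With no fold change threshold the counts were 13 and 17 for LPS in WT and IRF5-/- (41.8% and 37.5% of all genes). They were 16 and 3 for defactinib (57% and 3.36%) and 16 and 22 for LPS with defactinib (53.2% and 53.4%). Between genotypes they were 11, 22 and 16 (unstimulated, LPS, LPS with defactinib), where 15.3%, 52.2% and 36.3% of all genes passed. For genotype by defactinib the count was 11 (37%), and for genotype by LPS it was 5 (17.1%). Leaving out each library in turn gave 4 to 5 and 3 to 7 members called for LPS in WT and IRF5-/-, 6 to 8 and 0 for defactinib, 5 to 7 and 6 for LPS with defactinib, 6, 9 to 11 and 7 to 9 between genotypes, 5 to 7 for genotype by defactinib and 2 to 6 for genotype by LPS. Of all genes, these fits called 19.1% to 23.1% and 6.46% to 26.2% for LPS, 26.3% to 30.7% and 0.125% to 5.55% for defactinib, 22.1% to 26.3% and 21.7% to 25.3% for LPS with defactinib, 5.52% to 8.58%, 21.3% to 34.5% and 14.9% to 20.3% between genotypes, 20.2% to 31.6% for genotype by defactinib and 6.65% to 23.6% for genotype by LPS. With the replicate number as a block, 6 were called for defactinib in WT, 4 for LPS in WT and 4 for LPS in IRF5-/-, where 29.2%, 21.2% and 14.3% of all genes were, and 148 of the 152 member results passed; 15 of 45 pairs of same-numbered libraries had residuals correlated above 0.1. Depth limits Parva and Bcar1, at or near 0 counts.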
